A study of Mus musculus with 4 samples.

Results

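The 10 genes described here encode the ATPases of the structural maintenance of chromosomes (SMC) family and the factors that release cohesin from DNA. They are Smc1a, Smc2, Smc3, Smc4, Smc5, Smc6, Smchd1, Pds5a, Pds5b and Wapal, the older symbol of Wapl, and were taken by name from the 23922 genes of the authors' deposited table. All 10 were among the 5719 genes that the authors tested. They were chosen because several had been seen lower in the second condition of that table, so their levels and differences are a description of this set and support nothing beyond it.

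The RNA came from E14, a mouse embryonic stem cell line grown on gelatin in medium with serum and leukemia inhibitory factor (LIF). Cells received esiRNA, a pool of short interfering RNAs, against Pnldc1 (2 libraries) or against luciferase, a reporter that mouse cells lack (2 libraries), with Lipofectamine RNAiMAX in both groups, and ribosomal RNA as well as molecules shorter than 200 nt were removed from the total RNA before sequencing. The table gives each gene 1 expression value in each of 2 conditions named q2 and q1, and nothing in the labels ties either name to an esiRNA. A difference below is therefore lower or higher in q2 relative to q1, never a direction of the silencing. No value of a single library is given, so no value has an SD, and the authors' Cuffdiff test is the sole measure of replicate error. Whether a group's 2 libraries stem from different cultures is not stated in the labels, so its p-values may reflect technical spread alone. Values are taken as FPKM, fragments normalised for transcript length and library size, which Cuffdiff writes by default, though the header states no unit. In bulk RNA, fewer cells that express a gene and less of its RNA in each cell cannot be told apart.

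SMC proteins are long coiled-coil molecules whose ends form an ATPase head, and pairs of them close into rings or clamps around DNA. SMC1A and SMC3 form cohesin, which holds sister chromatids together and folds interphase chromatin into loops, also at regulatory elements of embryonic stem cells. SMC2 and SMC4 form condensin, which compacts mitotic chromosomes, and SMC5 and SMC6 form a complex that acts in DNA repair and replication. PDS5A and PDS5B bind cohesin and, together with WAPL, open its ring to release it from DNA. SMCHD1 is a noncanonical member of the family that helps to silence the inactive X chromosome and imprinted clusters.

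The ATP-binding loop (P-loop) of the ATPase head is shown as coding sequence because it is the feature the 6 classical SMC genes share. The sequences come from GENCODE M21 transcripts on GRCm38, read 5′ to 3′ along the mRNA, and capitals mark A or T at the third position of a codon.
Smc1a: ggAcccaaTggctcTggTaagtcA
Smc3: ggcagAaaTggctcTggAaaAagc
Smc2: ggTttAaaTggTagTggAaaAtcc
Smc4: ggAccAaaTggcagTggAaaAtcc
Smc5: ggAgccaaTggAacAgggaagtcA
Smc6: ggcaaTaaTggAagTgggaagagT
Of the 8 codons of each loop, 7 end in A or T in Smc2, 6 in Smc4 and 5 in each of the other 4 genes, a count over too few codons to stand for a whole gene. The loop lies in exon 3 of Smc3 (chr19:53613817-53613840, plus strand), in exon 2 of Smc2 (chr4:52440349-52440372, plus strand), in exon 4 of Smc4 (chr3:69007947-69007970, plus strand) and in exon 2 of Smc5 (chr19:23268793-23268816, minus strand). In Smc1a it is split between exons 1 and 2 and in Smc6 between exons 3 and 4. The same search found no such loop near the start of the coding sequence of Smchd1, Pds5a, Pds5b or Wapal.

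Every one of the 10 genes had a lower value in q2 than in q1 in the authors' deposited table. Of all 5719 tested genes, 2553 were lower in q2 and 3166 higher. In 5 of the 10 genes the difference passed the authors' test at q under 0.05, as Smc2, Smc3, Smc4, Pds5b and Wapal did. In none did a higher value in q2 pass. At an unadjusted Cuffdiff p under 0.05 there were 7 lower in q2 and 0 higher, where 8.29% and 10.5% of all tested genes were so. Of all 5719 tested genes, 4.25% passed in either direction, 1.94% as lower in q2 and 2.31% as higher. At q under 0.01 Smc3 and Pds5b passed as lower in q2, where 0.734% of tested genes did, and at q under 0.1 Smc5 was added, where 3.22% did. The rule that chose the genes used this comparison, so nothing is read from that contrast. The median log2 ratio of q2 over q1 was -0.69 over the 10 genes, between -1.08 and -0.22, beside 0.06 over all tested genes.

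**Figure D1:**
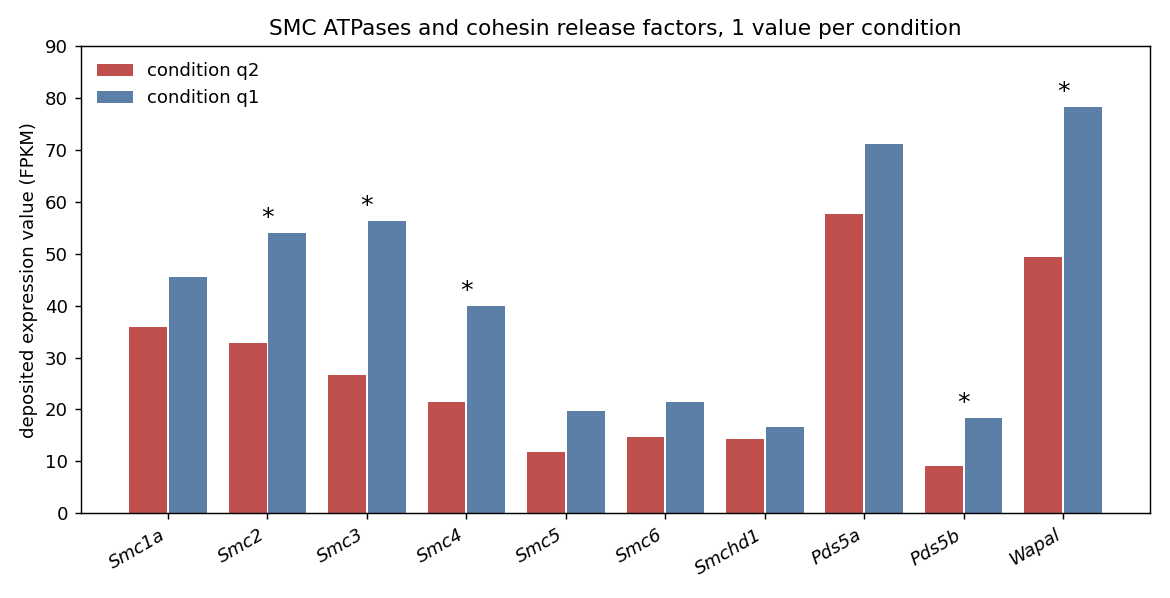
Deposited expression value in FPKM of each of the 10 genes in condition q2 (left bar) and condition q1 (right bar), with 1 value per condition and no error. A star marks the 5 genes whose q in the authors' deposited table was under 0.05, and the q2 bar is the shorter of the pair for all 10 genes.

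Of the 3 pairs of SMC partners, the ATPases of cohesin had the most unequal ratios. Smc3, whose head takes part in the gate through which DNA leaves the ring, had 26.7 FPKM in q2 and 56.3 FPKM in q1 in the authors' deposited table, a log2 ratio of -1.08 (Cuffdiff p = 5e-05, q = 0.00367). This is 47.4% of the level in q1 and the largest difference among the 10 genes. Smc1a, its partner in the ring, had 35.9 FPKM in q2 and 45.6 FPKM in q1 in the authors' deposited table (log2 ratio -0.34, Cuffdiff q = 0.357), which did not pass. The order of the partners therefore turned, since Smc3 stood at 0.742 times the level of Smc1a in q2 and at 1.23 times in q1. Whether that turn exceeds the spread between libraries cannot be tested with 1 value per condition. Smc3 lies on chromosome 19 from 53600398 to 53645833 and Smc1a on chromosome X from 152016428 to 152062694 (GRCm38). Smc3 has a stretch of 616 nt at 90% identity or more to the annotated gene Gm29763. Whether reads from that stretch can be assigned to Smc3 was not tested.

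The condensin ATPases Smc2 and Smc4 were both lower in q2 and both passed. In the authors' deposited table Smc2 had 32.9 FPKM in q2 and 54.0 FPKM in q1 (log2 ratio -0.72, Cuffdiff q = 0.0135). Smc4 had 21.4 FPKM in q2 and 39.9 FPKM in q1 in the authors' deposited table (log2 ratio -0.90, Cuffdiff q = 0.0104). Unlike the cohesin partners, these kept their order, with Smc2 at 1.54 times the level of Smc4 in q2 and 1.35 times in q1. Smc2 lies on chromosome 4 (52439243 to 52488260) and Smc4 on chromosome 3 (69004738 to 69034623). Smc4 also hosts the microRNA genes Mir15b and Mir16-2 on its own strand. Mir15b was listed at 865.1 in q2 and at 0 in q1 in the authors' deposited table (q = 0.542), a value of a short RNA from the size class that was depleted, and Mir16-2 was listed at 0 in both.

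Smc5 and Smc6, the ATPases of the repair complex, were lower in q2 without passing at q under 0.05. The authors' deposited table gives Smc5 11.8 FPKM in q2 and 19.7 FPKM in q1 (log2 ratio -0.75, Cuffdiff p = 0.00285, q = 0.0570), just outside the threshold. Its q2 value lay below the q1 value of the untested gene Nipbl (13.6 FPKM). Smc5 may thus have been tested only through q1, where it was higher. Smc6 had 14.7 FPKM in q2 and 21.4 FPKM in q1 in the authors' deposited table (log2 ratio -0.54, Cuffdiff p = 0.0214, q = 0.175). Both partners stood close to each other, Smc6 at 1.25 times Smc5 in q2 and at 1.08 times in q1. Smc5 lies on chromosome 19 (23206451 to 23273897, minus strand) and Smc6 on chromosome 12 (11265886 to 11319785). Smchd1, on chromosome 17 (71344489 to 71475343, minus strand), had the smallest difference of the 10 genes, with 14.3 FPKM in q2 and 16.7 FPKM in q1 in the authors' deposited table (log2 ratio -0.22, Cuffdiff q = 0.615).

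Among the release factors, Pds5b and Wapal passed and Pds5a did not. Pds5b had 9.12 FPKM in q2 and 18.4 FPKM in q1 in the authors' deposited table, a log2 ratio of -1.01 (Cuffdiff p = 5e-05, q = 0.00367). This p, which Smc3 also has, is the smallest listed and is held by 78 genes, so it does not rank them. The cohesin loader gene Nipbl, with 10.1 FPKM in q2 and 13.6 FPKM in q1, was not tested. The q2 value of Pds5b lay below both of these, so Pds5b may have been tested only through q1, where it was higher. Wapal, which drives release, had 49.3 FPKM in q2 and 78.3 FPKM in q1 in the authors' deposited table (log2 ratio -0.67, Cuffdiff q = 0.0135). Pds5a, the more abundant of the PDS5 paralogs, had 57.7 FPKM in q2 and 71.2 FPKM in q1 in the authors' deposited table (log2 ratio -0.30, Cuffdiff q = 0.360). Pds5a thus stood at 6.33 times the level of Pds5b in q2 and at 3.87 times in q1. Pds5a and Pds5b both lie on chromosome 5 (65605721 to 65698273, minus strand, and 150673739 to 150810690) and Wapal on chromosome 14 (34673928 to 34747983).

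In order of level, q2 ran Pds5a, Wapal, Smc1a, Smc2, Smc3, Smc4, Smc6, Smchd1, Smc5 and Pds5b, and q1 ran Wapal, Pds5a, Smc3, Smc2, Smc1a, Smc4, Smc6, Smc5, Pds5b and Smchd1. No neighbours in either order can be called different, since no spread is given. The medians of the 10 genes, 24.0 FPKM in q2 and 42.7 FPKM in q1, lay below that of all tested genes in q2 (34.1 FPKM) and above it in q1 (33.0 FPKM). If the values are FPKM, the spacing of low values corresponds to about 1410000 fragments in q2 and 1210000 in q1. On that scale Smc5 had about 57.2 fragments in q2 and 82.3 in q1, the fewest of the set, and Pds5a about 727 in q2 and 769 in q1, the most. Counts this low limit the precision of Smc5, Smc6, Smc4, Smchd1 and Pds5b most.

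Partner genes of these ATPases had log2 ratios on both sides of 0. A list of 36 genes for the other subunits, loaders and regulators of cohesin, condensin and SMC5/6, the SMCHD1 partner Lrif1 and the RAD50 complex held 27 tested genes. Of these, Rad50 alone passed, as lower in q2, and none passed as higher, where 1.94% and 2.31% of all tested genes did. At q under 0.1 there were 2 lower in q2 and 1 higher, where 3.22% and 4.14% of tested genes were so. A lower value in q2 was seen in 20 of the 27 and a higher value in 7, where 2553 and 3166 of all 5719 tested genes were so. The median log2 ratio of the 27 was -0.18, between -0.97 and 1.00, beside -0.69 for the 10 genes. The 9 untested partners are left out of this range. Among them the SMC5/6 genes Ankrd32, the older symbol of Slf1, at -1.44 and Eid3 at 1.40 lay outside it, both at low values. The 10 genes were chosen for low values in q2 and the partners were not, the list was written with earlier results of these data known, and no test of the difference between the lists was made. At an unadjusted Cuffdiff p under 0.05 there were 4 partners lower in q2 and 1 higher, where 8.29% and 10.5% of all tested genes were so.

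**Figure D2:**
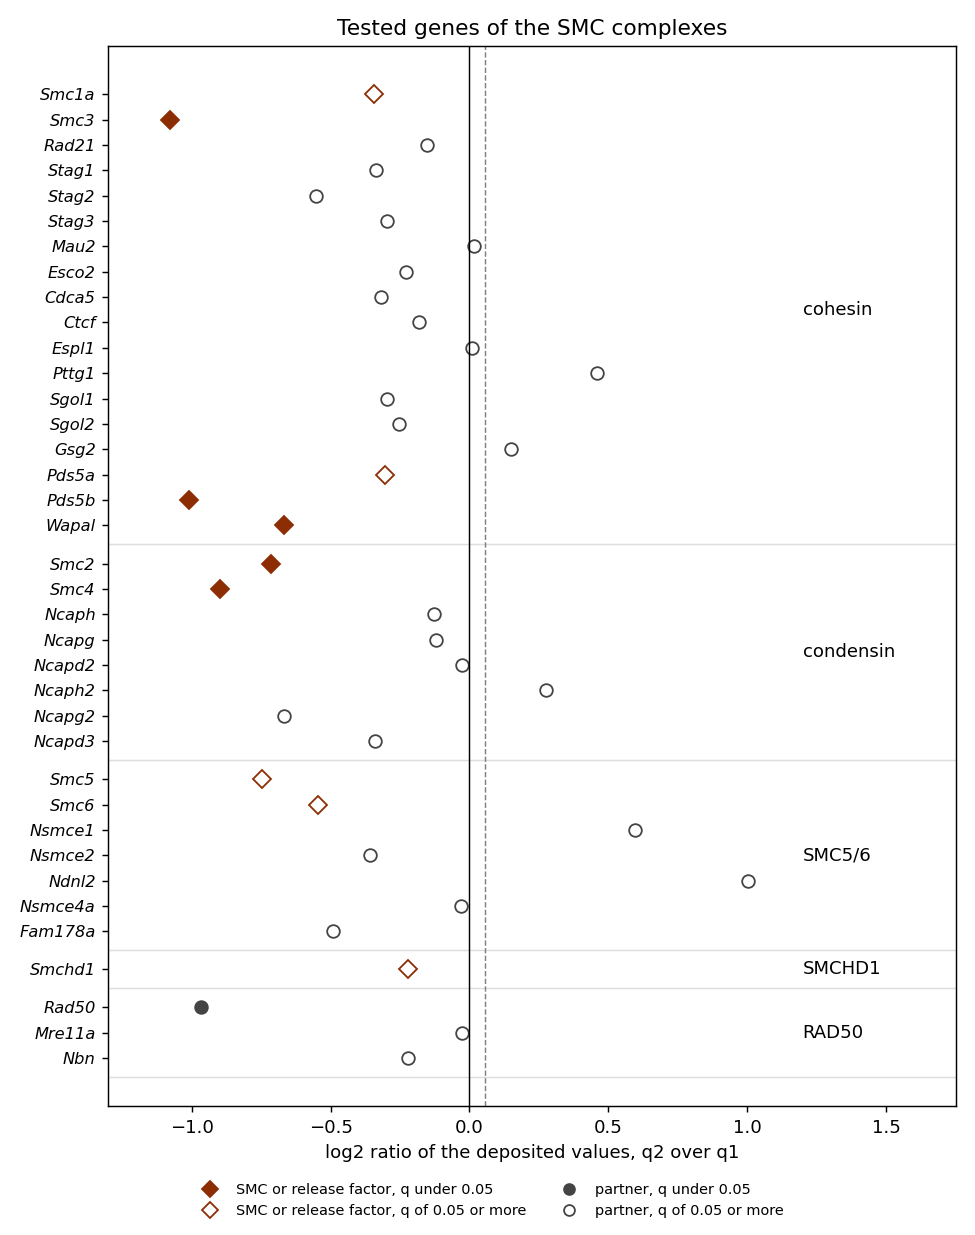
Log2 ratio of the deposited values, q2 over q1, for the 10 genes (diamonds) and the 27 tested partners (circles), grouped by complex, with filled marks for q under 0.05. The dashed line is the median of all tested genes, 0.06. The filled marks are Smc3, Pds5b, Wapal, Smc2, Smc4 and the partner Rad50, and the condensin subunit Ncapd2 and the cohesin subunit Rad21 lie near 0.

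Within cohesin, 13 of 19 partners were tested and none passed the authors' Cuffdiff test. At an unadjusted Cuffdiff p under 0.05 there was 1, lower in q2, where 8.29% of all tested genes were so. Rad21, the kleisin that closes the ring, had 102.7 FPKM in q2 and 114.2 FPKM in q1 in the authors' deposited table (log2 ratio -0.15, Cuffdiff q = 0.653), so it stood at 3.85 times Smc3 in q2 and 2.03 times in q1. Stag2, a subunit that binds Rad21, had 13.6 FPKM in q2 and 20.0 FPKM in q1 in the authors' deposited table (log2 ratio -0.55, p = 0.0196 and q = 0.167 by Cuffdiff), and its paralog Stag1 had a log2 ratio of -0.34. The regulators that oppose release, the SMC3 acetyltransferase Esco2 and sororin (Cdca5), had log2 ratios of -0.23 and -0.32. Separase (Espl1), which cuts the kleisin, had 0.01, and its inhibitor securin (Pttg1) had 0.46. The loader gene Nipbl was not tested, with 10.1 FPKM in q2 and 13.6 FPKM in q1 in the authors' deposited table, the highest values among the partners left untested.

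In condensin both ATPases had lower ratios than each of the other subunits. The set that holds both was chosen because several of its genes were lower in q2, so this order is a description only. All 6 non-SMC subunits were tested and none passed by Cuffdiff at q under 0.05. At an unadjusted Cuffdiff p under 0.05 there was 1, lower in q2, where 8.29% of all tested genes were so. Ncapd2, a HEAT-repeat subunit of condensin I, had 160.3 FPKM in q2 and 163.3 FPKM in q1 in the authors' deposited table (log2 ratio -0.03, Cuffdiff q = 0.944). The kleisin Ncaph and the HEAT-repeat subunit Ncapg, also of condensin I, had log2 ratios of -0.13 and -0.12. In condensin II, Ncapg2 had 12.3 FPKM in q2 and 19.5 FPKM in q1 in the authors' deposited table (log2 ratio -0.67, Cuffdiff q = 0.0730), while Ncapd3 had -0.34 and the kleisin Ncaph2 0.27. Ncapg2 was thus close in ratio to Smc2 (-0.72), and the other 5 were nearer to 0 than either ATPase. The q2 value of Ncapg2 lay below the q1 value of the untested Nipbl (13.6 FPKM), so Ncapg2 may have been tested only through q1.

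Subunits of the SMC5/6 complex lay on both sides. Ndnl2, the older symbol of Nsmce3, had 44.7 FPKM in q2 and 22.3 FPKM in q1 in the authors' deposited table (log2 ratio 1.00, Cuffdiff q = 0.0937), and the ubiquitin ligase Nsmce1 had a log2 ratio of 0.60 (q = 0.322). The kleisin Nsmce4a had -0.03, the SUMO ligase Nsmce2 -0.36 and Fam178a, the older symbol of Slf2, -0.49 (q = 0.201). The q2 value of Fam178a, 13.5 FPKM, lay below the q1 value of the untested Nipbl (13.6 FPKM). Fam178a may thus have been tested only through q1. No tested partner of the 5 passed by Cuffdiff at q under 0.05. At an unadjusted Cuffdiff p under 0.05 there were 1 lower and 1 higher in q2, where 8.29% and 10.5% of all tested genes were so. Lrif1, which binds SMCHD1, was not tested.

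Rad50, an SMC-like ATPase of the break repair complex, had 8.39 FPKM in q2 and 16.4 FPKM in q1 in the authors' deposited table, a log2 ratio of -0.97 (Cuffdiff q = 0.0372). Its partners Mre11a (-0.03) and Nbn (-0.22) did not pass. Rad50 had the lowest ratio among the 27 tested partners. Its q2 value lay below both values of the untested Nipbl (10.1 FPKM in q2 and 13.6 FPKM in q1), and its q1 value above both. Rad50 may thus have been tested only through q1, where it was higher, and its call and rank are read with that limit. Its P-loop, on chromosome 11 (chr11:53706927-53706950, minus strand), has 2 of 8 codons that end in A or T, although over its whole coding sequence G or C takes 48.3% at the third codon position, a lower share than in Smc1a, and its transcript has a GC content of 45.2%.
Rad50: ggAcccaaTggggcggggaagacg

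The 10 genes share a transcript shape, which their partners have in part. The rule did not use this shape, though the ratio that the rule used moved with it over all tested genes, as given below. Each had a longer annotated transcript than the median tested gene, between 3448 nt for Smc5 and 8934 nt for Pds5a against a median of 2636 nt. Each also had a lower GC content, between 39.7% for Smc2 and 46.9% for Smc1a against a median of 51.0%. At the third codon position the share of G or C was 33.7% in Smc6, 45.1% in Smc3 and 57.0% in Smc1a, against a median of 60.8%. The genes are split into many exons, 19 in Wapal and 48 in Smchd1 at the extremes, where the median tested gene had 9. The 27 tested partners had medians of 3782 nt, 46.4% GC and 50.8% G or C at the third codon position. These lay between the medians of the 10 genes and those of all tested genes.

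Across the tested protein-coding genes the ratio of the conditions moved with these same properties. Over 5479 genes of the same libraries, Spearman's rho of the log2 ratio was 0.47 with GC content and -0.41 with transcript length, given as descriptions. In the fifth of genes with the least G or C at the third codon position, which holds all of the 10 genes but Smc1a, the median log2 ratio was -0.27, and 6.93% passed as lower in q2 and 0.0912% as higher. In the fifth with the most the median was 0.27, and 0.456% passed as lower in q2 and 6.11% as higher. Within the 10 genes, whose GC contents are close together, the log2 ratio had a rho of 0.27 with GC content, -0.16 with G or C at the third codon position and 0.39 with length. The last 2 have signs opposite to those over all genes, but no sign is read from 10 genes chosen by this ratio. Pearson's r with G or C at the third codon position was 0.15 in the same 10 genes. Over 37 genes, the 10 with their tested partners, rho was 0.59, 0.58 and -0.39 in the same order, with the signs seen over all genes.

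**Figure D3:**
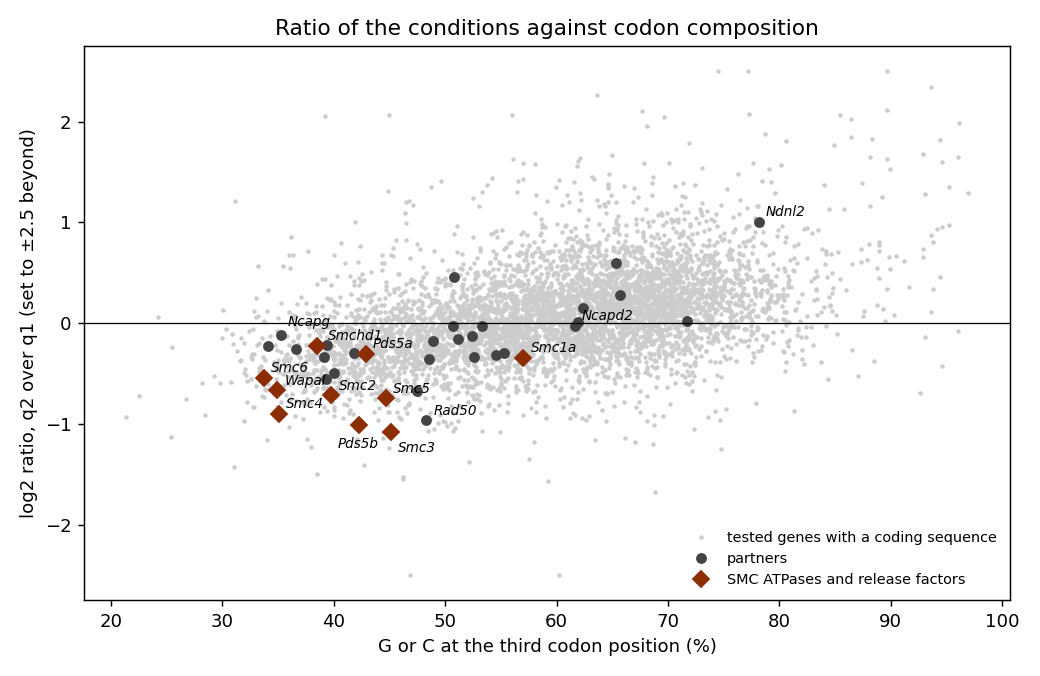
Log2 ratio, q2 over q1, against the percentage of G or C at the third codon position for tested genes with a coding sequence (grey), the partners (dark circles) and the 10 genes (diamonds). The cloud rises to the right, and the 10 genes lie at its left, between 33.7% and 57.0%, with Ncapd2 at 61.6% near a ratio of 0 and Ndnl2, whose transcript as a whole has 44.7% GC, at 78.1% with a ratio of 1.00.

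The partners with ratios near or above 0 had other compositions in part. Ncapd2 had a GC content of 54.0%, Ncaph2 55.7% and Nsmce1 52.7%, all above that of every one of the 10 genes. Ncapg, at 39.8% GC and 3703 nt, was about as low in GC as Smc2 and had a ratio of -0.12. Esco2, at 37.8% GC, had -0.23. Ndnl2, with the highest ratio of the tested partners at 1.00, had a transcript GC content of 44.7% and a length of 5946 nt, both inside the ranges of the 10 genes, and 78.1% G or C at the third codon position.

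A surface of the log2 ratio over length and GC content, fitted to the 5479 genes, gave each of the 10 genes a value between -0.40 for Pds5b and -0.16 for Smc1a. Subtracting it left a median of -0.31 for the 10 genes, in place of -0.69, and of -0.02 for the partners, in place of -0.18. Smc3 kept the largest remainder at -0.78, followed by Pds5b at -0.61, Smc4 at -0.55 and Smc5 at -0.53. Smc2 and Wapal had remainders of -0.32 and -0.30, and Smc1a and Smc6 of -0.18 and -0.17. Pds5a and Smchd1 turned to 0.05 and 0.13. Rad50 kept -0.74 of its -0.97. For Ndnl2 the surface gave -0.26, which left a remainder of 1.27. These remainders have no test, since the table holds no value of single libraries.

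**Figure D4:**
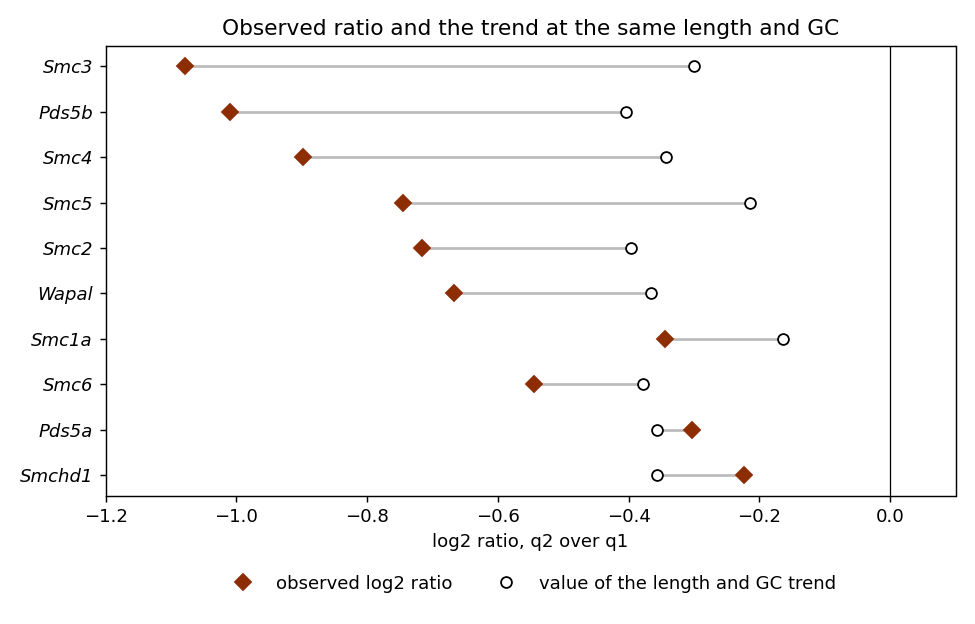
Observed log2 ratio, q2 over q1 (diamonds), and the value of the length and GC surface for a gene of the same length and GC content (open circles) for each of the 10 genes, ordered by their difference. The gap is widest for Smc3, at -0.78, and the marks change sides for Pds5a and Smchd1.

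The promoters of the 10 genes are given as a description. The rule used the direction that these genes share, so no common regulation is read from it. RefSeq on GRCm38.p6 gave a promoter for 9 of the 10 genes, read here as the 250 bases before the annotated start of transcription. Those of Smc3 and Smc1a are shown as the pair of cohesin ATPases with unequal ratios, and that of Smc2 for the motifs it holds, with motif matches in capitals.
Smc3: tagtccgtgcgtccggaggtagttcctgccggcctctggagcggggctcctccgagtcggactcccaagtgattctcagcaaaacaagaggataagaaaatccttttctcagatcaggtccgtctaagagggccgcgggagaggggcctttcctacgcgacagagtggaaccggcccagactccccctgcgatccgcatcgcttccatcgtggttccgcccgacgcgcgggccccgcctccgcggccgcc
Smc1a: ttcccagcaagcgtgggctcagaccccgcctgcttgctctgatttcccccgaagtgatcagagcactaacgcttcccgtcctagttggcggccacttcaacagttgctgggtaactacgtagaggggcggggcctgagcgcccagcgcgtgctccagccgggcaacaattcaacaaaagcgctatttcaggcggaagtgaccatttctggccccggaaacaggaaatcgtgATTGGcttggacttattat
Smc2: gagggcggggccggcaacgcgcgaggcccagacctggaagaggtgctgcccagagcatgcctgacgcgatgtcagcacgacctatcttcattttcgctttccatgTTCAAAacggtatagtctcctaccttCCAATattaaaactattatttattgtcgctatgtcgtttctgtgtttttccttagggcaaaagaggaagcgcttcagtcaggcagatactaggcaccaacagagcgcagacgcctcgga
They lie at chr19:53600146-53600395, chrX:152016178-152016427 and chr4:52438971-52439220, each on the plus strand. Their GC contents of 64.4%, 56.8% and 51.6% are above those of the transcripts that follow, and 8 of the 9 promoters ranged between 51.6% for Smc2 and 80.4% for Pds5a. The window of Smc5, at 43.2% and with none of the motifs below, lies within the GENCODE gene, 1048 bases beyond the start of its transcript, so it is not the sequence before that start. Those of Pds5b and Pds5a reach 88 and 37 bases into their GENCODE genes. The CCAAT box (CCAAT, both strands) was found in 4 of the 9 and in 33.8% of all 32851 promoters of the table. The CHR element of genes of late cell cycle (TTTGAA, both strands) was found in 3 of the 9 and in 16.0% of all. An E2F motif (TTTGGCGC) was found in Pds5a and in 0.417% of all, and its second form (TTTCCCGC) and an ETS motif (CCGGAAGT) in none of the 9, against 0.895% and 2.88% of all. All were searched on both strands, and no matches of different motifs overlapped in the promoters shown. A match is a description of letters in these windows.

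The targeted gene does not identify the conditions. Pnldc1 had 26.8 FPKM in q2 and 18.1 FPKM in q1 in the authors' deposited table (Cuffdiff q = 0.399). All 8 markers of embryonic stem cells were tested and none passed the Cuffdiff test. A lower value in q2 was seen in 3 and a higher value in 5, where 2553 and 3166 of all 5719 tested genes were so. At an unadjusted Cuffdiff p under 0.05 there were 2, Klf4 as lower in q2 and Dppa5a as higher. Of all tested genes, 8.29% were so as lower and 10.5% as higher. In the authors' deposited table Pou5f1 had 864.9 FPKM in q2 and 713.9 FPKM in q1, and Klf4 had 18.2 FPKM in q2 and 27.5 FPKM in q1. The 6 fibroblast markers were untested and summed to 13.6 FPKM in q2 and 7.05 FPKM in q1, mostly from Thy1, with Col1a2, Postn and Dcn listed at 0 in both. The 6 markers of primitive endoderm summed to 1.79 FPKM in q2 and 3.66 FPKM in q1.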

How the data were processed

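Titles gave the groups of the libraries. Per the submitters' processing notes, TopHat and Cuffdiff were used, with mm10 and GRCm38.p4 as genome builds, and their versions and the annotation are not stated in the labels. The authors deposited 1 Cuffdiff table which holds per gene an expression value (FPKM by default), a test statistic (a signed score), a p-value and a q-value. No count test could be run on it, and the depth of single libraries is unknown.

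The deposited log2 fold column held 1055 unreadable cells, so the log2 ratio was recomputed as q2 over q1. The deposited q-values differed from a Benjamini-Hochberg adjustment over the 5719 tested genes by at most 5.24e-07. Calls use the authors' q under 0.05. Transcript length, GC content and coordinates come from GENCODE M21, with 1 transcript per gene, matched by symbol or RefSeq synonym for 99.6% of tested genes. The length and GC surface was a quadratic least-squares fit in numpy 2.4.6 with ratios limited to 2 on either side, tested on simulated data. Depth was estimated from low values of protein-coding genes, of which 64.5% in q2 and 66.2% in q1 lay within 0.15 of a whole fragment at the spacing fitted to them. Near-identical copies were stretches of 200 nt or more at 90% identity or more, found with blastn.

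The members and the lists were chosen with earlier results of these data known. The genes named are the 10 members, tested partners that passed or are subunits of their complexes, and Pnldc1. The median of the partners with the surface subtracted and the division by the third codon position were chosen after the data were seen. Other partners and markers of cell types named, and Mir15b and Mir16-2, were chosen after their values were seen.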

Additional observations from a re-analysis of the deposited data

How the results depend on the processing

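No paired analysis was possible because only values of whole conditions were used here, and for the same reason no replicate could be left out. Of the 10 genes, 5 were lower in q2 at q under 0.05, 2 at q under 0.01, 6 at q under 0.1 and 7 at an unadjusted p under 0.05. Among partners the count lower in q2 was 1, and 0 at q under 0.01, 2 at q under 0.1 and 4 at an unadjusted p under 0.05. Of all tested genes, 1.94%, 0.734%, 3.22% and 8.29% were lower in q2 at these thresholds in turn. The count of partners higher in q2 was 0, and 1 at q under 0.1 and at an unadjusted p under 0.05. Of all tested genes, 2.31%, 4.14% and 10.5% were higher at q under 0.05, at q under 0.1 and at that p. A filter on a mean value of 10, run at q under 0.05, gave the same counts of 5, 1 and 0. It kept 5709 of the 5719 tested genes, so it could hardly have changed them. The median log2 ratio of the 10 genes was -0.69, -0.75 when recentred on the median of tested genes, -0.72 when recentred on the upper quartiles of values above 0, -0.68 with a pseudocount of 1 and -0.31 once the surface over length and GC content was subtracted. That last setting turned Pds5a to 0.054 and Smchd1 to 0.13. The other settings turned the sign of none of the 10 genes, and could not have done so. Recentring subtracted 0.056 or 0.031 from ratios that were all below 0, and a pseudocount cannot turn a sign. If the values are FPKM, the estimated depths of about 1410000 fragments in q2 and 1210000 in q1 limit what single genes can show.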
